A study of Homo sapiens with 12 samples.

Results

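Mitochondrial chaperones and proteases are the genes whose products fold, refold and degrade proteins inside mitochondria. Of the 58735 genes in the expression table, 10 were taken by name, 5 chaperones (HSPD1, HSPE1, HSPA9, TRAP1 and DNAJA3) and 5 proteases or protease subunits (LONP1, CLPP, CLPX, YME1L1 and AFG3L2). The choice was by gene name, with no threshold on a measured value, but it was made with earlier results of these data known. All 10 passed the filter of a mean of at least 1 FPKM (fragments normalized by exon length and library size) in each comparison. Their mRNA was measured by RNA sequencing in 12 libraries of cultured cells, 3 for each combination of a cell line label and a treatment. The labels name KGN and COV434, established human lines given as granulosa cell tumor and as wild type, both grown in the same serum-containing medium. In each line, untreated cells were set against cells kept for 72 h with 77-39, an inhibitor of the mitochondrial deacetylase SIRT3. The dose is labelled as 10 in a unit that cannot be read as a concentration, and no vehicle is named for the untreated cells. Each line is 1 line, and nothing in the labels says that the 3 libraries of a group came from separate cultures, so p-values measure the spread between these libraries only.

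HSPD1 (HSP60) and HSPE1 (HSP10) form the chaperonin, a closed chamber in which matrix proteins fold. HSPA9 (mortalin) is the mitochondrial HSP70, which pulls proteins through the inner membrane and hands them on for folding. It works with J-domain partners such as DNAJA3 and with the nucleotide exchange factors GRPEL1 and GRPEL2, while TRAP1 is the mitochondrial relative of HSP90. LONP1 degrades misfolded and oxidised matrix proteins, and CLPX unfolds substrates for the peptidase CLPP. YME1L1 and AFG3L2 are AAA proteases of the inner membrane, YME1L1 facing the intermembrane space and AFG3L2, with SPG7, facing the matrix. When unfolded proteins build up in mitochondria, cells can raise these chaperones and proteases from the nucleus, a program tied in mammals to the factors ATF5, DDIT3 (CHOP) and ATF4.

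Several facts about the libraries stand before the results. KGN is known for expressing the granulosa factor FOXL2 and COV434 for lacking the chromatin remodellers SMARCA4 and SMARCA2. Here the 6 libraries labelled KGN held between 0 and 0.0195 FPKM of FOXL2, and those labelled COV434 between 11.5 and 14.0 FPKM. SMARCA2 was at most 0.00870 FPKM in the libraries labelled KGN and at least 4.51 FPKM in those labelled COV434. SMARCA4 had a mean of 2.58 FPKM in untreated libraries labelled KGN and of 9.22 FPKM in those labelled COV434. These markers go against both labels, so the groups are called by their labels throughout, and a direction between the lines is a direction between labels. Of the other granulosa genes, AMH lay between 4.07 and 9.14 FPKM over all 12 libraries and INHA between 0.580 and 5.22 FPKM. INHBB was at most 0.0886 FPKM in the libraries labelled KGN and at least 6.32 FPKM in the others. FSHR was listed at 0 in all 12 libraries, NR5A1 was at most 0.0166 FPKM, AMHR2 at most 0.0836 and CYP19A1 at most 0.161 FPKM. SIRT3 itself, whose product is inhibited and whose gene was left intact, lay between 3.36 and 4.95 FPKM. Libraries held 15547851 to 18280415 reads on genes, and the 10 members had between 343 and 18482 reads each in every library. Reads of mitochondrially encoded genes took 7.30% to 9.63% of a library in 11 libraries and 13.5% in the treated library 1 labelled COV434.

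Sequences just upstream of 4 members are shown, HSPD1 and HSPE1 because they encode the chaperonin pair and start next to each other on opposite strands, TRAP1 because it fell with 77-39 and HSPA9 because it differed most between the labels. Windows run from 250 bases before a start to 50 after it, 5′ to 3′ along the gene, from RefSeq on GRCh38.p14. Of the 10 members, 8 had a window, and CLPP and YME1L1 are named only. Capitals mark every match, on either strand, to 6 strings, namely the heat shock inverted repeats TTCNNGAA and GAANNTTC, the CHOP element TGATGNAAT, the cAMP response element TGACGTCA, the E-box CACGTG and the NRF1-like GCNTGCGC.
HSPD1, chr2:197499791-197500090, minus strand: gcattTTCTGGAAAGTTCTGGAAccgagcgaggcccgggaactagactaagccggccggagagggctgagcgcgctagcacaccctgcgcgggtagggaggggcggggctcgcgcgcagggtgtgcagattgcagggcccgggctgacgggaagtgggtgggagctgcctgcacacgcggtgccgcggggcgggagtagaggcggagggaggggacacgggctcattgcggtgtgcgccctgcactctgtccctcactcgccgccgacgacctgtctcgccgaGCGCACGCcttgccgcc
HSPE1, chr2:197500129-197500428, plus strand: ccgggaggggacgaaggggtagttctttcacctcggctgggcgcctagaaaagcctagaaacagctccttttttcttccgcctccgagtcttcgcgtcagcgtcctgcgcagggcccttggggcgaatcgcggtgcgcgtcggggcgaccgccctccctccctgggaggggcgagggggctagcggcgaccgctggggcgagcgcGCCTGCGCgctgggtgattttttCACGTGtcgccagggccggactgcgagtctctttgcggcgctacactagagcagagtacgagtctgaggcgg
HSPA9, chr5:138575352-138575651, minus strand: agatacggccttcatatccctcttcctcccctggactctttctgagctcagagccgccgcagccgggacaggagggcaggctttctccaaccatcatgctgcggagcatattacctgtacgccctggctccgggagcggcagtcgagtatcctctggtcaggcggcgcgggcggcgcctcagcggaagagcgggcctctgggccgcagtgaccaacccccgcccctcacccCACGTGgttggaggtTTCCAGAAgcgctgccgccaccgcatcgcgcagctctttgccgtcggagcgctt
TRAP1, chr16:3717475-3717774, minus strand: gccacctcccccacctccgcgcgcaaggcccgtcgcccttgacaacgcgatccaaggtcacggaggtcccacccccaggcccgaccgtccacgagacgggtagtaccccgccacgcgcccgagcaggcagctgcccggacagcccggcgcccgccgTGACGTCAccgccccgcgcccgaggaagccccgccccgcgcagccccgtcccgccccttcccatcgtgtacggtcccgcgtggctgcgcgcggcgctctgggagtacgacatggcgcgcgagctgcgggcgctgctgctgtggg
The HSPD1 window opens with TTCNNGAA, GAANNTTC and TTCNNGAA in overlap, and HSPA9 holds 1 TTCNNGAA. Among all 35116 promoter windows, 7.74% hold TTCNNGAA and 6.77% hold GAANNTTC. TRAP1 holds TGACGTCA, which 1.85% of windows hold, and no match to the heat shock or CHOP strings. TGATGNAAT was in none of the members' windows, against 0.991% of all. CACGTG, in 7.26% of windows, was found for HSPD1 (in a second annotated window), HSPE1, HSPA9 and LONP1. GCNTGCGC, in 12% of windows, was found for HSPD1, HSPE1, CLPX, DNAJA3 and LONP1. The second HSPD1 window, chr2:197500225-197500524, shares 204 bases with that of HSPE1, and the first lies 38 bases from it. The CACGTG and GCNTGCGC matches of the second HSPD1 window are the same bases as those of HSPE1. A match is a string in a window and was not tested as a site.

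HSPD1 had the highest FPKM of the 10 members in all 4 groups, and AFG3L2 and CLPX had the lowest. In untreated libraries labelled KGN, HSPD1 had 132.5 ± 8.64 FPKM (SD, n = 3), HSPA9 116.1 ± 4.27, LONP1 79.2 ± 3.40, CLPP 32.0 ± 2.00, YME1L1 28.9 ± 0.0602 and TRAP1 26.1 ± 1.41. DNAJA3 followed with 21.1 ± 0.638 FPKM, HSPE1 with 17.5 ± 2.00, CLPX with 15.8 ± 0.598 and AFG3L2 with 12.2 ± 0.419. Only HSPE1 and CLPX were neighbours with overlapping libraries in that order. In untreated libraries labelled COV434, HSPD1 with 103.2 ± 23.6 FPKM and LONP1 with 63.6 ± 6.05 came first. There HSPA9 (50.3 ± 6.73), CLPP (49.2 ± 10.2) and, further down, YME1L1, DNAJA3, HSPE1 and AFG3L2 overlapped with their neighbours. With 77-39 the order in the libraries labelled KGN differed only in YME1L1, which moved above CLPP, and in DNAJA3, which moved above TRAP1. In bulk libraries such as these, fewer cells of a kind and less RNA per cell cannot be told apart. FPKM were divided by the length of all exons of a gene, which exceeds that of the main coding transcripts for every member. It is 1977 bases for HSPE1 against 950 for its main coding transcript, and 4245 for HSPD1 against 2299 to 2455. For HSPA9 it is 8254 against 2825 to 4727, for DNAJA3 7071 against 2763 and for TRAP1 5227 against 2296. HSPA9 had more reads than HSPD1 in every library labelled KGN (18482 against 11206 in untreated library 1). Levels between genes, and the place of HSPD1 above HSPA9, thus depend on which exons are used.

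**Figure D1:**
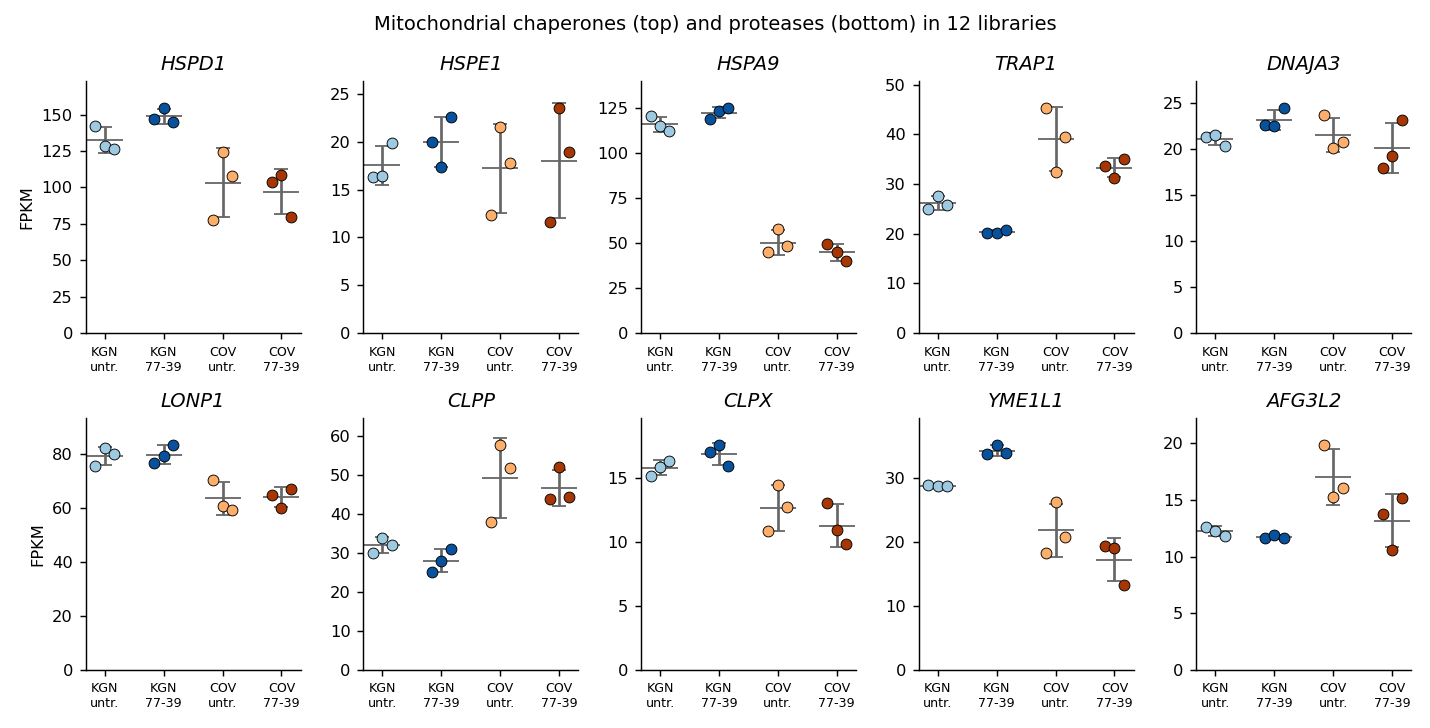
FPKM of each member in the 12 libraries, with chaperones in the top row and proteases in the bottom row. Points are libraries, horizontal lines are group means and error bars are SD (n = 3). HSPA9 lies between 112.4 and 125.2 FPKM in all 6 libraries labelled KGN and between 39.9 and 57.9 in all 6 labelled COV434, and the 3 treated libraries labelled KGN are below the untreated ones for TRAP1 and above them for YME1L1.

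To find out whether 77-39 changed this system, treated and untreated libraries were first compared in the libraries labelled KGN, by limma on log2(FPKM + 1) with Benjamini-Hochberg adjustment over 12671 genes and a threshold of 0.05 for the adjusted p. TRAP1 fell, YME1L1 rose, and the other 8 members did not pass. Over all genes tested, 17.6% rose and 16.4% fell at this threshold, and 45.3% had an unadjusted p under 0.05, so 1 riser and 1 faller of 10 members is no more than this background. At the unadjusted threshold 4 of 10 members passed. The treated and untreated libraries did not overlap for 4 members, against 49.7% of all genes tested. The median difference of the 10 members was 0.08 on the log2 scale, and that of all genes tested was 0.01.

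TRAP1 had 24.9, 27.7 and 25.9 FPKM in the untreated and 20.1, 20.2 and 20.8 FPKM in the treated libraries labelled KGN. All treated libraries were lower than all untreated ones. The difference was -0.34 on the log2(FPKM + 1) scale (SE 0.0506, 95% interval -0.46 to -0.22), an adjusted p of 0.00315 by limma. On that scale the treated level is 0.787 of the untreated one. YME1L1, the protease that also cleaves the fusion protein OPA1, went from 28.9, 28.8 and 28.8 FPKM to 33.8, 35.3 and 34.04 FPKM. Here every treated library was above every untreated one, with a difference of 0.24 (SE 0.0394, 95% interval 0.15 to 0.34, adjusted p = 0.00439 by limma), a fold of 1.19. Both calls were lost with 1 spread shared by all 12 libraries (adjusted p of 0.0814 for TRAP1 and 0.357 for YME1L1), and both were kept when any 1 library was left out (adjusted p up to 0.0184 and 0.0262).

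HSPD1 had 142.4, 128.7 and 126.4 FPKM untreated and 146.8, 154.5 and 144.8 FPKM treated. The treated libraries were higher without overlap, by 0.17 (95% interval 0.02 to 0.31), but the adjusted p was 0.0760 by limma. Without the untreated library 1 the adjusted p of HSPD1 was 0.0207. DNAJA3 had 21.3, 21.6 and 20.4 FPKM untreated and 22.6, 22.6 and 24.5 treated, again without overlap, with a difference of 0.13 (95% interval 0.02 to 0.25) and an adjusted p of 0.0783. Of the remaining chaperones, HSPE1 differed by 0.18 (95% interval -0.08 to 0.44) and HSPA9 by 0.08 (95% interval -0.04 to 0.19). Among the proteases, LONP1 differed by 0.01 (95% interval -0.12 to 0.14), CLPX by 0.09 (-0.04 to 0.21) and AFG3L2 by -0.06 (-0.16 to 0.05). CLPP differed by -0.19 (95% interval -0.39 to 0.01, adjusted p = 0.127 by limma), and its adjusted p was 0.0429 without the treated library 3. The intervals of LONP1, HSPA9, CLPX and AFG3L2 took in both signs and stayed short of the size of the fall of TRAP1, while that of HSPE1 reached beyond it.

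**Figure D2:**
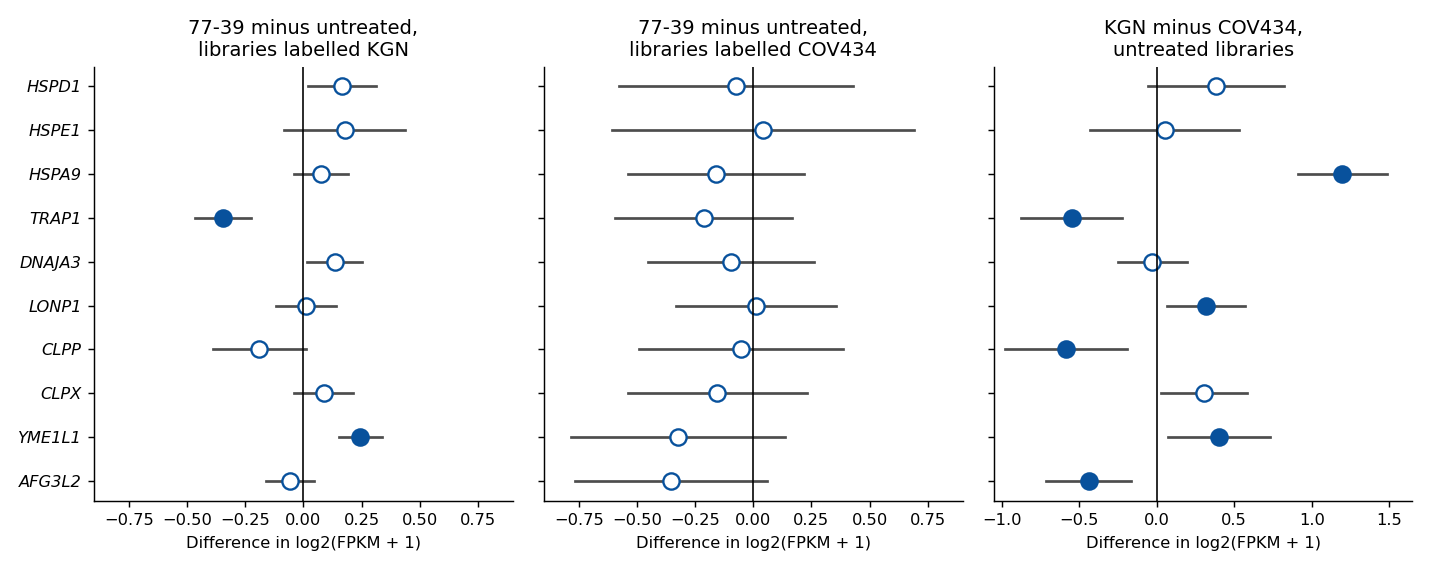
Differences in log2(FPKM + 1) of the 10 members in 3 comparisons, with 95% intervals from limma (3 libraries per group). Filled points have an adjusted p under 0.05. For the label KGN only TRAP1 (-0.34) and YME1L1 (0.24) are filled, none is in those labelled COV434, and between the labels HSPA9 (1.20) stands apart.

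The base composition of a gene moved with its response in the libraries labelled KGN. Across 12664 genes the difference fell with GC content (Spearman's rho = -0.36, across genes, which are not independent replicates), and the median went from 0.16 in the poorest in GC of 10 equal bins of genes to -0.15 in the richest. Each of the 3 untreated libraries deviated upward with GC (rho of 0.197 to 0.402) and each of the 3 treated ones downward (-0.133 to -0.389), so this pattern and the treatment cannot be told apart. For the label COV434 rho was 0.09, and libraries of both treatments deviated in both directions. YME1L1 (42.1% GC) lay among genes whose median difference was 0.10, and TRAP1 (57.3% GC) among genes whose median was -0.09, so each moved further than the median of genes of its own GC content. With each library's trend along GC removed, TRAP1 differed by -0.25 (adjusted p = 0.00475 by limma) and YME1L1 by 0.14 (adjusted p = 0.0227). In this fit, where 30.2% of all genes tested were called, DNAJA3 (0.18, adjusted p = 0.0280) and the GC-rich LONP1 (0.14, adjusted p = 0.0350) passed as well. CLPX changed sign, to -0.02 (adjusted p = 0.807). The GC correction was chosen after the data had been seen.

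**Figure D3:**
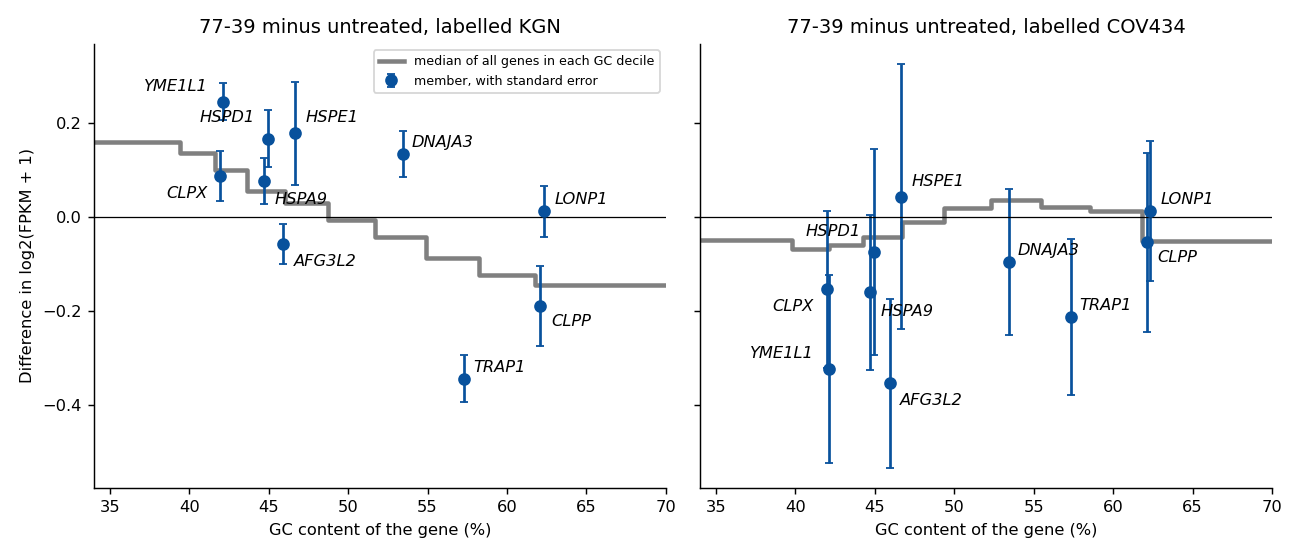
Difference in log2(FPKM + 1) with 77-39 against the GC content of the gene, for libraries labelled KGN and COV434. Points are members with standard errors, and the grey steps are medians of all genes tested in 10 bins of GC content, which fall from 0.16 to -0.15 in the libraries labelled KGN. TRAP1 lies below and YME1L1 and LONP1 above the grey line there.

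No member passed the test in the libraries labelled COV434. Of 12060 genes tested, 5 had an adjusted p under 0.05 by limma (0.0415%), 20% of these higher with 77-39 against 33.3% to 50% of the calls under quantile normalization, voom, totals without mitochondrially encoded genes and GC correction. An unadjusted p under 0.05 was found for 965 (8.00%), while 0 of 10 members passed at either threshold. AFG3L2 had 19.9, 15.2 and 16.1 FPKM untreated and 13.8, 10.6 and 15.2 FPKM treated. Its treated libraries were all below the untreated ones, by only a small margin between the nearest pair, with a difference of -0.35 (95% interval -0.77 to 0.06, adjusted p = 0.717). It was the only member without overlap, against 14.4% of all genes tested. YME1L1 had 18.3, 26.4 and 20.8 FPKM untreated and 19.4, 19.0 and 13.4 treated, which overlapped, with a difference of -0.32 (95% interval -0.79 to 0.14). TRAP1 had 45.3, 32.4 and 39.4 FPKM untreated and 33.7, 31.2 and 35.0 treated, and the difference of -0.21 (95% interval -0.59 to 0.17) took in the value seen in the libraries labelled KGN.

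The chaperonin scattered widely between these replicates. HSPD1 had 77.6, 124.0 and 108.1 FPKM untreated and 103.4, 108.2 and 79.4 FPKM treated, with a difference of -0.07 (95% interval -0.58 to 0.43). HSPE1 had 12.4, 21.5 and 17.7 FPKM untreated and 11.6, 23.5 and 19.0 treated, and differed by 0.04 (-0.61 to 0.69). Untreated library 1 was the lowest untreated library for both. HSPA9, CLPX, DNAJA3, LONP1 and CLPP differed by -0.16, -0.15, -0.10, 0.01 and -0.05. The lower bounds of their 95% intervals lay between -0.54 and -0.33 and the upper bounds between 0.22 and 0.38. Changes inside these bounds were not excluded. Larger ones could also miss the adjusted threshold in these libraries, where the cytosolic heat shock gene HSPA1A differed by 1.57 with an adjusted p of 0.0769 by limma.

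Libraries of the same number deviated together in those labelled COV434 (correlation of their deviations from the group means of 0.40, 0.474 and 0.166 over 12060 genes). For number 3 this value was close to the 0.154 between untreated library 3 and treated library 2, so that pair is hardly set apart. With the library number as a block, 0.721% of genes were called by limma and still none of the members. AFG3L2 was lower in 3 of 3 same-numbered pairs, by -0.50, -0.49 and -0.08 on the log2 scale, and had an adjusted p of 0.30 with the block. TRAP1 was also lower in 3 of 3 pairs, by -0.42, -0.05 and -0.17, with an adjusted p of 0.472. YME1L1 was higher in pair 1, by 0.08, and lower in the other pairs, by -0.45 and -0.60.

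The responses of the lines were then compared directly, as the interaction of cell line label and treatment over 13127 genes. In that test 3.60% of genes and none of the members had an adjusted p under 0.05. The largest difference between the responses was that of YME1L1, 0.57 on the log2 scale (SE 0.211, 95% interval 0.11 to 1.03), with an unadjusted p of 0.0207 and an adjusted p of 0.177 by limma. Thus the rise of YME1L1 in the libraries labelled KGN was not shown to differ from the response in those labelled COV434. For TRAP1 the difference between the responses was -0.13 (95% interval -0.48 to 0.22). The other 8 members differed by -0.14 to 0.30, each with an interval that included 0.

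Between untreated libraries of the labels 6 of 10 members passed the test. Of 13098 genes, 32.6% were higher and 36.4% lower in the libraries labelled KGN at an adjusted p under 0.05, and 3 members each were higher and lower, so the members' share is close to that of all genes. These libraries are the same untreated ones that serve as controls in the comparisons with 77-39. HSPA9 was highest above COV434, with 120.8, 115.3 and 112.4 FPKM in libraries labelled KGN and 44.9, 57.9 and 48.2 FPKM in those labelled COV434. The groups lie far apart, 1.20 on the log2 scale (SE 0.119, 95% interval 0.91 to 1.48, adjusted p = 0.000128 by limma), a fold of 2.29. HSPA9 kept its call in 12 of 12 alternative settings, with values of 1.13 to 1.68, and in all fits without 1 library.

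LONP1 (75.5, 82.2 and 79.95 against 70.5, 61.0 and 59.3 FPKM) was higher in the libraries labelled KGN by 0.32 (SE 0.105, adjusted p = 0.0324 by limma). YME1L1 (28.9, 28.8 and 28.8 against 18.3, 26.4 and 20.8 FPKM) was higher by 0.40 (SE 0.138, adjusted p = 0.0365). Both were separated without overlap, yet LONP1 kept its call in 1 of 6 and YME1L1 in 2 of 6 fits that left out 1 library, with adjusted p up to 0.114 and 0.106. TRAP1 was lower in the libraries labelled KGN by -0.55 (SE 0.136, adjusted p = 0.0102), with 24.9, 27.7 and 25.9 against 45.3, 32.4 and 39.4 FPKM. CLPP (29.98, 33.97 and 32.2 against 37.9, 57.8 and 52.0 FPKM) was lower by -0.58 (SE 0.165, adjusted p = 0.0174), and AFG3L2 (12.6, 12.3 and 11.8 against 19.9, 15.2 and 16.1 FPKM) by -0.44 (SE 0.115, adjusted p = 0.0126). CLPX was separated too, 0.31 higher, with an adjusted p of 0.0503, and HSPD1 was 0.38 higher with an adjusted p of 0.103. HSPE1 (0.05) and DNAJA3 (-0.03) overlapped between the labels.

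The scale of this comparison matters, because the deposited values were divided by 1.07 to 1.10 times the reads on genes in libraries labelled KGN and by 0.911 to 0.978 times in those labelled COV434. Scaling by the recovered reads themselves moved the median of all genes by 0.20 toward KGN. HSPA9, LONP1 and YME1L1 stayed higher and called under the deposited scale, median-ratio scaling, quantile normalization, voom and totals without mitochondrially encoded genes. TRAP1, CLPP and AFG3L2 stayed lower on these scales, but CLPP and AFG3L2 lost their calls under the last 3 of them (adjusted p of 0.0596 to 0.399 and of 0.0768 to 0.255) and TRAP1 under quantile normalization (adjusted p = 0.514). On the same 3 scales DNAJA3 turned from -0.03 to between 0.15 and 0.37, and HSPD1 and CLPX passed the threshold. With the GC trend removed HSPA9, LONP1 and AFG3L2 kept their calls, and TRAP1 (adjusted p = 0.0513), YME1L1 (0.0593) and CLPP (0.171) did not.

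AFG3L2, TRAP1, YME1L1 and HSPE1 share exon sequence with genes on the other strand, and whether strand was used in counting is not given in the sources used here. AFG3L2 (chr18:12328944-12377314, minus strand, GRCh38) shares 837 exon bases, 12.6% of its own, with TUBB6, a tubulin gene at 27.7 to 28.6 FPKM in untreated libraries labelled KGN and at 78.1 to 90.1 FPKM in those labelled COV434. The higher level of AFG3L2 in the latter moved with that of TUBB6, and the part of TUBB6 reads in it was not tested. With 77-39, TUBB6 was at 98.2 to 118.3 FPKM in the libraries labelled COV434, higher than untreated, while AFG3L2 was lower. LONP1 (chr19:5691834-5720572, minus strand) shares only 43 exon bases, with the ribosomal protein gene RPL36. TRAP1 (chr16:3651639-3717597, minus strand) shares 29.3% of its exon bases with DNASE1, a nuclease gene that lay between 0.503 and 2.22 FPKM. YME1L1 (chr10:27110112-27155266, minus strand) shares 6.04% with MASTL, which was lower in the treated libraries labelled KGN (7.03 to 7.97 FPKM) than in the untreated ones (10.3 to 10.7 FPKM) while YME1L1 was higher. HSPE1 (chr2:197499994-197503457, plus strand) lies inside the annotated span of HSPD1 (chr2:197486581-197516737, minus strand) and shares 281 exon bases with it. HSPD1 has 17 and HSPE1 has 26 annotated pseudogenes in the table, whose reads came to 1.23% and 3.12% of those of their parent genes. These are reads assigned to the pseudogenes only. Reads that map equally well to a parent and a copy cannot be seen in the deposited values.

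Partners that act as 1 machine were set side by side as ratios of FPKM within a library, which cancels library scaling. The ratio of HSPD1 to HSPE1 was 7.64 ± 1.19 (SD, n = 3) in untreated and 7.545 ± 1.26 in treated libraries labelled KGN, and the libraries overlapped. CLPX to CLPP, the unfoldase to its peptidase, went from 0.495 ± 0.0225 to 0.608 ± 0.0862 there, without overlap. It was 0.261 ± 0.0225 in untreated libraries labelled COV434, lower than in all libraries labelled KGN. CLPX has 42.0% GC and CLPP 62.1%, and a ratio does not cancel a trend along GC content. With that trend removed, CLPX differed by -0.02 and CLPP by -0.06 with 77-39 in the libraries labelled KGN, against 0.09 and -0.19 without this correction. HSPA9 to its exchange factor GRPEL1 went from 7.57 ± 0.328 to 9.53 ± 0.0714 with 77-39 in the libraries labelled KGN, where GRPEL1 fell (below). In those labelled COV434 this ratio was 6.845 ± 0.326 untreated and 6.70 ± 1.87 treated, which overlapped. AFG3L2 to SPG7 was 4.17 ± 0.0107 in untreated libraries labelled KGN against 8.17 ± 2.5 for the label COV434. The pairs were chosen with these data known, so the ratios are a description.

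**Figure D4:**
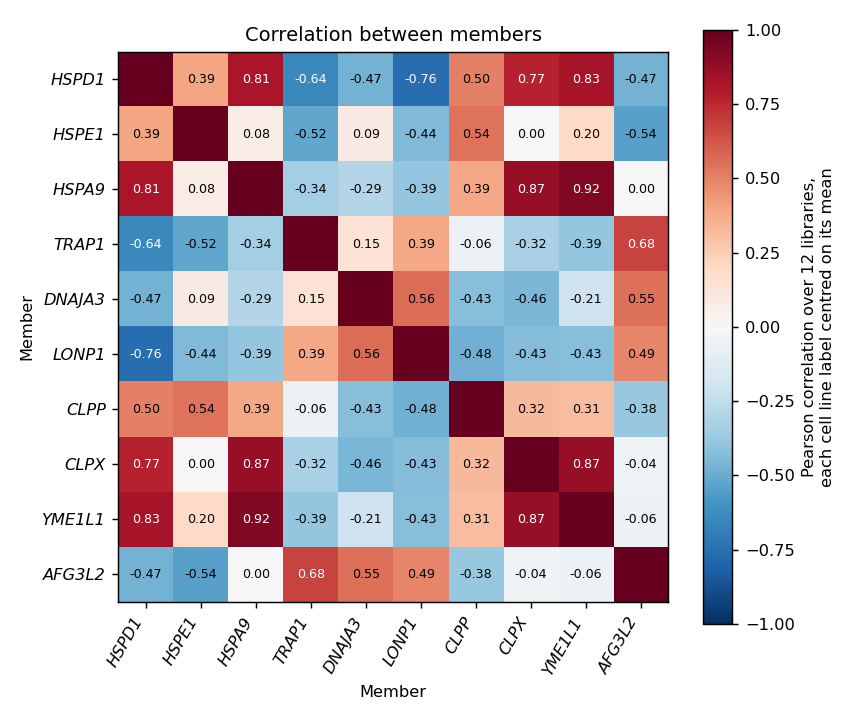
Pearson correlation between each pair of members over 12 libraries, computed on log2(FPKM + 1) after the mean of each cell line label was subtracted. Red is positive and blue negative. HSPD1, HSPA9, CLPX and YME1L1 form a block with values of 0.77 to 0.92 (HSPA9 and CLPX reach 0.11 within the label KGN), while HSPD1 and its partner HSPE1 reach 0.39.

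Across libraries the members did not move as 1 group. After the mean of each label was subtracted, HSPA9 and YME1L1 correlated at 0.92 over 12 libraries, CLPX and YME1L1 at 0.87, HSPA9 and CLPX at 0.87 and HSPD1 and YME1L1 at 0.83. Within the labels HSPA9 and CLPX correlated at 0.11 over the 6 libraries labelled KGN and at 0.97 over the 6 labelled COV434, HSPD1 and CLPX at 0.45 and 0.82, CLPX and YME1L1 at 0.70 and 0.91, and HSPD1 and YME1L1 at 0.85 and 0.82. These 4 genes had a GC content of 42.0% to 45.0%. AFG3L2, with 45.9% GC, correlated over 12 libraries at 0.002 with HSPA9, -0.04 with CLPX, -0.06 with YME1L1 and -0.47 with HSPD1. HSPD1 correlated at -0.76 with LONP1 (62.3% GC) and at -0.64 with TRAP1, and at 0.39 with HSPE1, next to which it starts. Libraries share their depth, treatment and base composition trend, so these values describe the libraries. Some pairs had opposite signs in the labels. LONP1 and CLPP correlated at 0.61 over the 6 libraries labelled KGN and at -0.91 over the 6 labelled COV434, and HSPA9 and DNAJA3 at 0.84 and -0.53. TRAP1 and YME1L1 correlated at -0.96 over the libraries labelled KGN, where both passed the test with 77-39, and at -0.17 in the others. Among the genes most like HSPD1 over all 12 libraries were METTL14 (0.99), TAF7 (0.98), HSD17B11 (0.96) and VPS26A (0.96), with a GC content of 38.1% to 44.9%.

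The wider machinery was counted in 7 lists of genes, against backgrounds of 17.6% higher and 16.4% lower of all genes tested with 77-39 in the libraries labelled KGN. Among mitochondrial co-chaperones and folding factors, 2 of 12 tested rose and 3 fell in the libraries labelled KGN (median -0.10). LRPPRC, which stabilises mitochondrial mRNAs, rose by 0.41 (adjusted p = 0.00237 by limma) and GRPEL2 by 0.38 (adjusted p = 0.0388). The call of GRPEL2 was lost with the GC trend removed (0.25, adjusted p = 0.129). PPIF, the cyclophilin of the permeability pore, differed by -0.46 (adjusted p = 0.000597), BCS1L, which assembles complex III, by -0.37 (0.00127), and GRPEL1 by -0.24 (0.0195). Of 16 other mitochondrial proteases and processing peptidases none rose and 2 fell, and none rose and 3 fell with the GC trend removed. LACTB differed by -0.25 (adjusted p = 0.00875) and PMPCA, a subunit of the mitochondrial processing peptidase, by -0.20 (adjusted p = 0.0219). The median of these 16 and that of all genes both rounded to 0.01.

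In the prohibitin complex and its AAA partners, 1 of 6 rose and 2 fell. OPA1 rose by 0.29 (adjusted p = 0.0121), a call lost with the GC trend removed (0.14, adjusted p = 0.110), and the nucleoid-linked ATPases ATAD3A and ATAD3B, which are near-identical copies whose reads may be split, differed by -0.51 and -0.44 (adjusted p of 0.000758 and 0.00114). Of 22 genes of mitochondrial protein import, 4 rose and 3 fell, and 2 rose and 4 fell with the GC trend removed. TOMM40, the outer membrane channel, differed by -0.47 (adjusted p = 0.00364), TIMM17B by -0.39 (0.0138) and TIMM13 by -0.34 (0.0179). TIMM8A rose by 0.27, TOMM20 by 0.17 and TIMM17A by 0.25. With the GC trend removed these 3 were at 0.20, 0.05 and 0.14 and lost their calls (adjusted p of 0.0626, 0.331 and 0.182), as did TIMM13 (-0.20, adjusted p = 0.0515).

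Regulators tied to the mitochondrial unfolded protein response gave 3 risers and 1 faller of 16 in the libraries labelled KGN, and 4 risers and 0 fallers with the GC trend removed. ATF3 rose from 8.40 ± 0.226 to 26.5 ± 0.447 FPKM (SD, n = 3), a difference of 1.55 (adjusted p = 1.21e-05 by limma), and DDIT3 from 54.2 ± 0.746 to 99.1 ± 1.90 FPKM, a difference of 0.86 (adjusted p = 0.000116). EIF2AK2 rose by 0.31 (adjusted p = 0.0373), a call lost with the GC trend removed (0.17, adjusted p = 0.168). ATF5, whose product is tied to the induction of HSPD1, HSPE1 and LONP1, was at 108.7 ± 1.58 FPKM untreated and at 98.8 ± 2.44 treated, a difference of -0.14 (adjusted p = 0.0491), and its adjusted p was 0.856 with the GC trend removed. ATF4 differed by -0.18 (adjusted p = 0.0541). Under the label COV434 ATF5 was at 7.10 ± 1.01 FPKM untreated, so that libraries labelled KGN were 3.77 higher on the log2 scale (adjusted p = 3.75e-07). Of the genes named with it, LONP1 was 0.32 higher in the libraries labelled KGN (adjusted p = 0.0324 by limma). HSPD1 was 0.38 and HSPE1 0.05 higher, neither of them called. A link between these levels was not tested. HMOX1, an enzyme of heme breakdown, went from 16.1 ± 0.782 to 104.0 ± 2.68 FPKM with 77-39 in the libraries labelled KGN (adjusted p = 3.48e-06). SIRT3 differed by -0.07 there (adjusted p = 0.475) and by 0.15 in those labelled COV434 (adjusted p = 0.929).

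Chaperones of the endoplasmic reticulum (ER) and the cytosol were counted in the same way. Of 15 ER chaperones 9 rose and none fell in the libraries labelled KGN, with a median of 0.22. DNAJB9 rose by 0.83 (adjusted p = 0.000139 by limma), HYOU1 by 0.71 (0.000176) and HSPA5 (BiP) by 0.57 (0.000596). With the GC trend removed, 6 ER chaperones rose and 1 fell, and 3 of the 10 members rose and 1 fell. Of 16 cytosolic heat shock genes 3 rose and 2 fell, HSP90AA1 by 0.43, HSPA8 by 0.36 and HSPH1 by 0.30 against FKBP4 by -0.26 and STIP1 by -0.25 (adjusted p between 0.00112 and 0.00703). Removing the GC trend gave 4 risers and 3 fallers among these 16. None of the 7 lists had a gene past the adjusted threshold in the libraries labelled COV434. With the library number as a block 4 cytosolic heat shock genes passed there, HSPA8, DNAJB1, HSPA1A and HSPA1B, named after their values were seen, and no gene of the other lists did. The difference between mitochondrial and other chaperones was not tested. Medians of the 7 lists there lay between -0.12 and 0.13, around that of all genes of -0.02. Between untreated libraries of the labels, where 32.6% of all genes tested were higher and 36.4% lower in those labelled KGN, 10 of 15 ER chaperones were lower and 0 higher, 9 of 22 import genes were lower and 1 higher, and 3 of 16 cytosolic heat shock genes were lower and 8 higher. Co-chaperones had 6 higher and 3 lower, other proteases 4 and 3, prohibitin partners 1 and 3, and regulators 4 and 8.

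**Figure D5:**
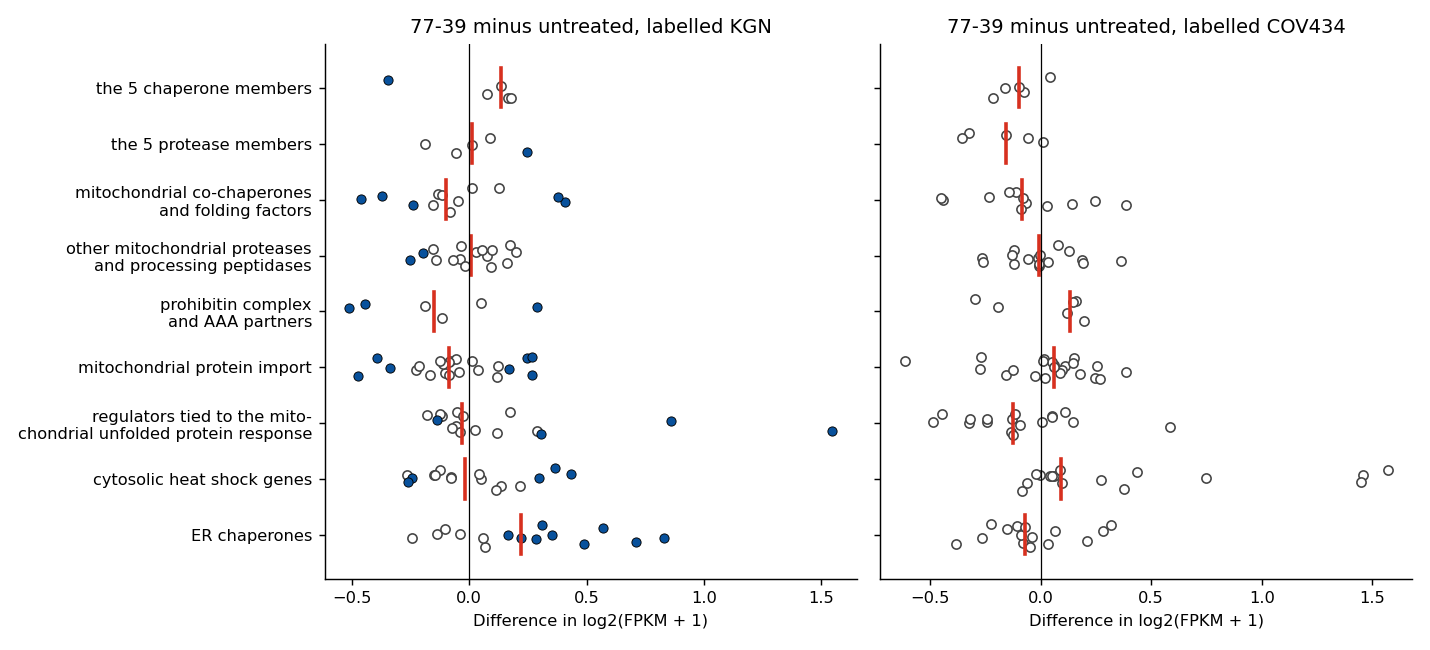
Difference in log2(FPKM + 1) with 77-39 of each tested gene in the chaperone and protease members and in 7 wider lists, for libraries labelled KGN and COV434. Filled points have an adjusted p under 0.05 and red bars are list medians. In the libraries labelled KGN 9 of 15 ER chaperones are filled to the right of 0, beside 1 of 10 members and 17.6% of all genes tested. With the GC trend removed (not drawn) these counts were 6 ER chaperones and 3 members. The difference between the lists was not tested. No point is filled in the libraries labelled COV434.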

How the data were processed

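RNA of 12 libraries was sequenced after preparation with a TruSeq kit. The authors deposited FPKM per gene, that is fragments normalized by exon length and library size, and the submitters' processing notes name HISAT2 2.0.5. They also name mouse builds, although all 58735 genes have human identifiers and coordinates of GENCODE release 29 on GRCh38. The extraction text in the labels speaks of retinas, which are not cell lines. Reads were recovered from the FPKM and gene lengths (100% of low values whole within 0.05), at 15547851 to 18280415 per library.

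Groups came from the labels. limma 3.58.1 in R 4.3.3 (lmFit, and eBayes with a trend) was run on log2(FPKM + 1), which understates changes of low genes, after genes below a mean of 1 FPKM were left out, each comparison alone, two-sided, with Benjamini-Hochberg adjustment. The members and gene lists were chosen with earlier results of these data known. All 10 members are named, and in each other list up to 3 genes that rose and 3 that fell, ranked by p, that passed the adjusted threshold of 0.05 with groups apart. Genes of a list that were called in the interaction were named too. SIRT3, HMOX1, ATF3, ATF4, ATF5 and DDIT3 are always named, and so are the genes most like HSPD1. Results of 2 further genes, and of 1 list of protease substrates, are not reported here. GC content is that of GENCODE transcripts, and its trend, or that of gene length, was removed per library by lowess with a span of 0.3. Same-numbered libraries correlated at -0.0164, -0.0180 and -0.0190 in the libraries labelled KGN, which share only a number, and at 0.40, 0.474 and 0.166 in those labelled COV434, which were taken as paired by this correlation alone. Alternatives were another pseudocount, other filters, median-ratio and quantile scaling, voom on recovered reads, 1 shared spread, the replicate block and leaving out each library. The corrections for GC, gene length and mitochondrially encoded genes were added after seeing the data. The fits were tested on simulated data.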

Additional observations from a re-analysis of the deposited data

Results flagged for a closer look

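No member had a response that differed between the cell line labels past the adjusted threshold of limma. Of the other named genes, 7 did, and 3.60% of all genes tested did. The test was of the difference itself (response in libraries labelled KGN minus response in those labelled COV434, on the log2 scale). Passing this test was itself a ground for naming a gene of a list, so the 7 are no share of the named genes. GRPEL2, an exchange factor of HSPA9, differed by 0.82 (SE 0.166, adjusted p = 0.0248), and its adjusted p was 0.127 with the GC trend removed. Its response was 0.38 for the label KGN and -0.44 for COV434, where it was not called (adjusted p = 0.405 by limma). HMOX1 differed by 2.01 (adjusted p = 0.000836) and ATF3 by 1.79 (adjusted p = 0.000377), both higher with 77-39 in the libraries labelled KGN. Of 16 cytosolic heat shock genes tested, 4 were called in the other direction and none in this one. The 4 were HSPA1A at -1.84 (adjusted p = 0.00786), HSPA1B at -1.60 (0.00567), HSPA8 at -1.09 (0.0259) and DNAJB1 at -0.63 (0.0267). Within the label KGN, HSPA1A, HSPA1B and DNAJB1 did not pass. None of the 4 passed the main fit within the label COV434 (adjusted p by limma of 0.0769 for HSPA1A, HSPA1B and HSPA8 and 0.147 for DNAJB1). With the library number as a block HSPA8 lost its call (adjusted p = 0.0589). Responses were -0.26 and 1.57 for HSPA1A, -0.15 and 1.45 for HSPA1B, 0.36 and 1.46 for HSPA8 and 0.11 and 0.75 for DNAJB1, in that order of labels. HSPA1A and HSPA1B are near-identical copies, so their reads may be split between them. Groups of 3 libraries were too small for a check of single outlying libraries.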

How the results depend on the processing

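Depth limits little here, since the members had at least 343 reads in each library, and the spread between libraries labelled COV434 sets what could be seen. Of the members in the libraries labelled KGN, only TRAP1 and YME1L1 were called, against 4 members by voom on recovered reads (with HSPD1 and CLPP), 4 under quantile normalization (with HSPA9 and DNAJA3), 4 with the GC trend removed, 1 (TRAP1) with the replicate block and the GC trend removed, and 0 with 1 spread shared by all 12 libraries. Of 12671 genes tested in the libraries labelled KGN, 4307 were called in the main fit. These became 5016 by voom, 4331 under quantile normalization and 3827 with the GC trend removed. With the block and the GC trend removed they became 2738, and with the shared spread 1237. When 1 library was left out they became 2751 (without treated library 2) to 4128. In the libraries labelled COV434 the 5 calls became 87 with the replicate block, 216 with the block and the GC trend removed, 20 with the GC trend removed, 28 with the length trend removed, 25 by voom, 488 with the shared spread, 3 with a filter of 0.1 FPKM or a pseudocount of 0.1, 1 with no filter, and 1 to 7 without 1 library. The 472 calls of the interaction became 828 with the block and the GC trend removed, 264 by voom, and 126 (without treated library 1 labelled KGN) to 975 (without treated library 1 labelled COV434). No member was called in either comparison under any of these settings. The replicate block alone changed no call of a member with 77-39. Between untreated libraries, which share only a number, the 6 members called became 3 with the GC trend removed, with or without the block, and 2 (without untreated library 3 labelled KGN) to 7 without 1 library. The block alone ended the calls of LONP1 (adjusted p = 0.101) and YME1L1 (0.0594) there.

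Sign changes were found in values that had not been called. In the libraries labelled KGN, LONP1 was -0.012 under median-ratio scaling, -0.0038 with the length trend removed and -0.022 to 0.041 without 1 library. With the GC trend removed, with or without the block, CLPX was -0.018 and SIRT3 0.020. In the libraries labelled COV434, leaving out 1 library gave -0.27 to 0.069 for HSPD1, -0.17 to 0.31 for HSPE1, -0.036 to 0.087 for LONP1, -0.23 to 0.070 for CLPP, -0.078 to 0.23 for ATF4 and -0.77 to 0.13 for DDIT3, and ATF4 was -0.032 under quantile normalization. In the interaction, with the GC trend removed, with or without the block, TRAP1 was 0.00023 and ATF5 0.091. ATF5 was 0.017 and LONP1 -0.021 with the length trend removed, and LONP1 was -0.0051 by voom and -0.013 without mitochondrially encoded genes. Without 1 library the interaction was -0.14 to 0.35 for HSPE1, -0.075 to 0.047 for LONP1, -0.26 to 0.038 for CLPP and -0.12 to 0.059 for ATF5. Between untreated libraries, DNAJA3 was 0.16 with the GC trend removed, with or without the block, 0.37 under quantile normalization (a call, adjusted p = 0.0141), 0.18 by voom and 0.15 without mitochondrially encoded genes, and ATF4 was 0.063 under quantile normalization. Without 1 library, HSPE1 was -0.16 to 0.22 and DNAJA3 -0.071 to 0.040. The cause was not tested. The settings for GC, length and mitochondrially encoded genes were chosen after seeing the data.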
